A study of Mus musculus with 12 samples.

Results

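The genes of retinal trophic signalling that were followed across 12 libraries of mouse retina were Bdnf, Ntrk2, Ntrk3, Ngfr, Gdnf, Gfra1, Gfra2 and Cntf. They were chosen by gene symbol, and all 8 were found among the 25124 genes listed in each of 2 tables of FPKM values (reads per kilobase of transcript, scaled to the tags of the library). The animals were wild type (WT) C57BL/6 mice, and every library was made from poly(A) RNA of the whole retina of an eye. In the single-IOP table, intraocular pressure (IOP) was raised to 30 mmHg for 1 h in one eye of 3-month-old or 18-month-old mice, and retinas were taken 2 days later, giving 3mo control and 3mo IOP on the one hand and 18mo control and 18mo IOP on the other. In the repeated-IOP table, mice that were 3 months old at the outset received 4 such elevations at intervals of 2 weeks in one eye, giving the groups 4xIOP control and 4xIOP, again taken 2 days after the last elevation. Each of the 6 groups had 2 libraries. In every group the control was the untreated opposite eye, so that no group came from an animal without a treated eye, and no cell type was isolated.

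The neurotrophins are secreted proteins that keep neurons alive and shape their branches. Bdnf encodes brain-derived neurotrophic factor, Ntrk2 and Ntrk3 encode its receptor TrkB and the related neurotrophin-3 receptor TrkC, and Ngfr encodes the common low-affinity neurotrophin receptor, a death-domain receptor. Gdnf encodes glial cell line-derived neurotrophic factor, which binds the membrane-anchored co-receptors made from Gfra1 and Gfra2 (the latter the preferred partner of neurturin) and signals through the Ret tyrosine kinase. Cntf encodes ciliary neurotrophic factor, a cytokine of glial cells that binds the receptor subunits encoded by Cntfr, Lifr and Il6st and activates Stat3. In the retina these factors are best known for supporting ganglion cells and photoreceptors after injury.

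For the TrkB and TrkC receptors, what the tables measured depended on the transcript chosen for counting. Trk genes make full-length receptors with a kinase and truncated receptors that end shortly after the membrane. In the single-IOP table Ntrk2 was counted over NM_008745, spanning chr13:58806569-58937031 of mm10 on the plus strand with 7015 exonic bases, whose coding sequence has 476 codons before the stop. In the repeated-IOP table it was counted over NM_001282961, which reaches 59133970 and has 821 codons. Of the coding bases of the full-length form, 1073 lay beyond the end of the single-IOP model and were not counted there. Ntrk3 was counted over NM_182809 (chr7:78300691-78577838, minus strand, 612 codons) in the single-IOP table and over NM_008746 (chr7:78192114-78577838, 825 codons) in the repeated-IOP table. Of the full-length coding bases, 893 lay outside the truncated model. Of the coding bases of the truncated models, 1394 of 1431 in Ntrk2 and 1585 of 1839 in Ntrk3 are shared with the full-length form. Reads of full-length transcripts were therefore counted there too, and the forms cannot be told apart. Coding bases are only 1431 of the 7015 exonic bases of the Ntrk2 model and 1839 of 3816 of the Ntrk3 model. Past their truncated coding ends the models run on to 58937031 and 78300691. The coding share thus does not give the share of each value common to both forms, which was not measured. The ends of both truncated coding sequences follow, because they show where the models used in the single-IOP table part from the full-length forms. They were read from the GENCODE transcripts of the same build, with the last 30 shared bases in lower case and the bases that only the truncated form has in capitals, at chr13:58932024-58932060 for Ntrk2 and within chr7:78302629-78304426 for Ntrk3.
Ntrk2 truncated end: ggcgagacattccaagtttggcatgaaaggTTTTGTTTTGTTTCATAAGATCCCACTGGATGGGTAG
Ntrk3 truncated end: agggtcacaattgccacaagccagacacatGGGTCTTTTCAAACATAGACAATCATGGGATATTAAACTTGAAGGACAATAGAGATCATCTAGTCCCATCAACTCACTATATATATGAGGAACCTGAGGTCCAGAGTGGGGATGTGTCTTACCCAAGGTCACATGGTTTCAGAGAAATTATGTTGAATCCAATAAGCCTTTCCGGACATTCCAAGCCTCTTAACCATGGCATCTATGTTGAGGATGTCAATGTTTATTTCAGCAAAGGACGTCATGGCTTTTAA

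Gfra2 also had different models (NM_001302095 with 3079 exonic bases and NM_008115 with 3476), while the other 5 genes had the same model in both tables. Levels of Ntrk2, Ntrk3 and Gfra2 were therefore compared only within a table. The windows of 250 bases before the start of Cntf and of Ngfr are shown because these genes carried the calls described below. They are RefSeq sequences of GRCm38.p6, on the strand of the gene. The windows were searched on both strands for TTCNNNGAA (the STAT motif), TGANTCA (AP-1), TGACGTCA (CRE) and GGGCGG (the GC box), and matches are in capitals.
Cntf, chr19:12765633-12765882, minus strand: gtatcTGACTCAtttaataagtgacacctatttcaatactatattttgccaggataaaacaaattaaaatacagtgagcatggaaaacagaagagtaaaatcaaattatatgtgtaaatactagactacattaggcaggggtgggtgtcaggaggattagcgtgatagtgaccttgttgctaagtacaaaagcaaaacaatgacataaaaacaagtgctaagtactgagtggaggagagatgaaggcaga
Ngfr, chr11:95587699-95587948, minus strand: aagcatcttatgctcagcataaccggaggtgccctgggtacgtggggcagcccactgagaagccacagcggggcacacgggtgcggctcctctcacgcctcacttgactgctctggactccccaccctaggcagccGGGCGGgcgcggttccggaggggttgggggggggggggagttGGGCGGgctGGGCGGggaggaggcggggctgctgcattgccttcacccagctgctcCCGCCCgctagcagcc

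The Cntf window had a GC content of 35.6% and held 1 AP-1 match, which begins 245 bases before the start. The Ngfr window had a GC content of 70.4% and held 4 GC box matches. Of 32851 promoter windows, 6.75% held an AP-1 match, 32.7% a GC box, 7.02% a STAT match and 1.55% a CRE match. Promoter sequences matched 6 of the 8 genes.

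The libraries held between 39.8 and 59.5 M mapped tags, of which 44.18% to 71.52% lay in exons. Rod markers summed to at least 6156 FPKM in every library, and the sum over 10 Müller glia markers was at least 815 FPKM. 2 libraries stood apart from their partners, 18mo control replicate 1 and 18mo IOP replicate 2, in which the horizontal cell markers summed to 7.67 and 3.28 FPKM against 23.5 and 24.7 in the other 18mo libraries. Within the single-IOP table the ages differed in coverage as well. The median FPKM of transcripts under 1000 bases was divided by the median of those with 4000 bases or more. This ratio was 3.03 to 9.12 in the 3mo libraries and 1.52 to 1.89 in the 18mo libraries. It was 1.97 to 2.91 in the repeated-IOP libraries, from mice that were 3 months old at the outset, so low ratios were not confined to old mice. Markers of other tissues of the eye also differed, and smooth muscle and fibroblast markers summed to 148.7 and 49.6 FPKM in 3mo IOP against 8.33 and 8.57 in 3mo control. As these are bulk samples, fewer cells of a type and less RNA per cell cannot be told apart. The single-IOP comparisons share libraries, in that each group enters more than one of them.

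In the single-IOP table Cntf had the highest mean over the 8 libraries, 10.2 FPKM, followed by Ngfr (6.46 FPKM), Ntrk2 (5.30 FPKM), Gfra2 (3.48 FPKM), Gfra1 (2.72 FPKM), Bdnf (1.55 FPKM) and Ntrk3 (1.21 FPKM). The ranges of neighbours in this order overlapped throughout, and the order depends on age and on IOP. In 3mo control Ngfr (2.32 FPKM) lay below Ntrk2 (3.99 FPKM), Gfra1 (2.89 FPKM) and Gfra2 (2.72 FPKM), and its place above them comes from the 18mo libraries. In 18mo control Cntf (3.99 FPKM) lay below Ngfr (9.11 FPKM) and Ntrk2 (5.39 FPKM). Gdnf came last over the 8 libraries with 0.0201 FPKM. Between libraries Ngfr varied most, with its highest value 6.49 times its lowest, and Cntf varied almost as much (6.26 times), whereas Ntrk3 varied by 1.68 times. In the repeated-IOP table the means were 6.19 FPKM for Cntf, 4.73 for Gfra1, 4.69 for Ntrk2, 4.45 for Ngfr, 2.74 for Ntrk3, 2.33 for Gfra2, 2.13 for Bdnf and 0.036 for Gdnf. In 4xIOP control Cntf (2.16 FPKM) lay below every member but Gdnf, and its first place comes from 4xIOP (10.2 FPKM).

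**Figure D1:**
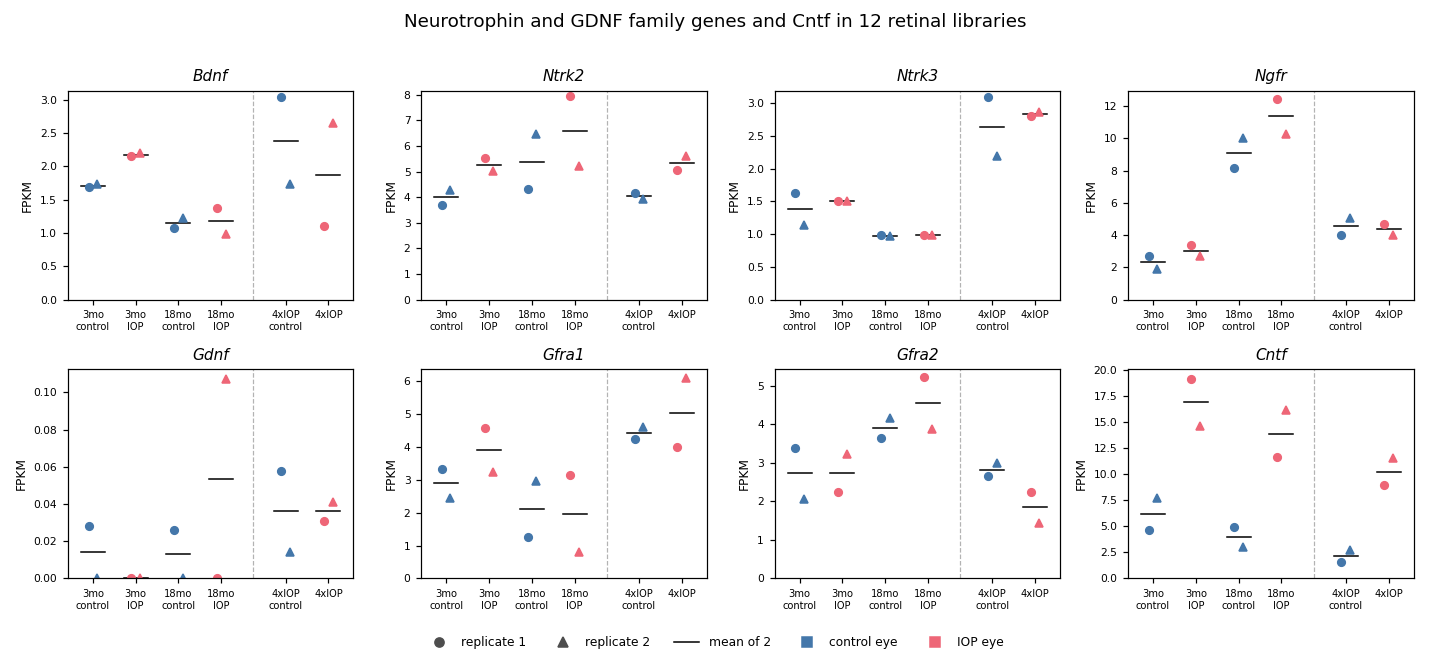
FPKM of the 8 genes (y axis, from 0, with its own scale for each gene) in the 2 libraries of each group (x axis), with circles for replicate 1, triangles for replicate 2 and a line at the mean. The dashed line separates the single-IOP table from the repeated-IOP table. Cntf is higher in the IOP eyes of all 3 pairs of groups, and Ngfr is between 8.19 and 12.4 FPKM in all 18mo libraries against 1.92 to 3.41 FPKM in the 3mo libraries.

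A gene was called at an adjusted p of at most 0.05 (limma, Benjamini-Hochberg over all tested genes) together with a change of at least 2-fold on log2(FPKM + 0.5), a scale that understates changes of low genes. Gdnf fell under the filter of 0.5 FPKM, so 7 of the 8 genes were tested. Ngfr alone was called with age, higher in 18mo control than in 3mo control and higher in 18mo IOP than in 3mo IOP. Of all tested genes 23.2% and 21.8% were called in these comparisons, so that 1 of 7 is no result about the members as a group. None of the 7 was called after a single IOP elevation, where 0.575% of all genes were called at 3 months and 0.124% at 18 months, although 1 of the 7 in each case, Cntf, had an unadjusted p under 0.05. With voom on recovered reads these counts were also 0. Cntf alone was called after repeated IOP, where 6.15% of all genes were called. The median log2 fold change of the 7 was -0.34 in 18mo control against 3mo control and -0.28 in 18mo IOP against 3mo IOP, beside 0.16 and 0.09 over all tested genes. It was 0.34 after a single IOP elevation at 3 months, 0.19 at 18 months and 0.10 after repeated IOP, beside 0.13, 0.09 and 0.10 over all genes.

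**Figure D2:**
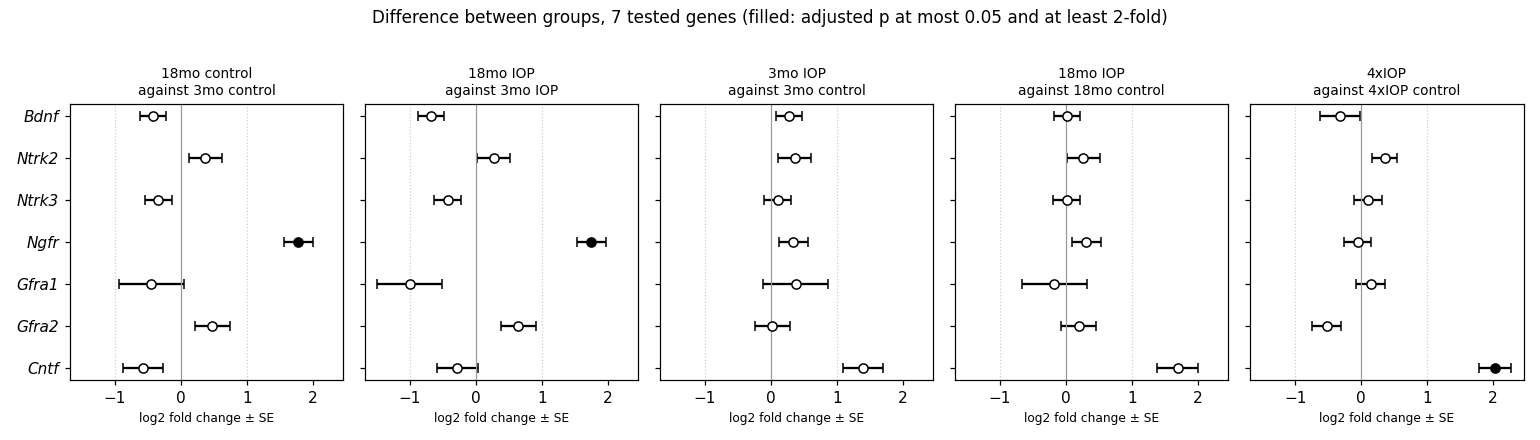
Log2 fold change with its standard error (x axis, log2(FPKM + 0.5)) for the 7 tested genes (rows) in the 5 comparisons between groups (panels), with 2 libraries a group. Filled points passed the call and dotted lines mark a 2-fold change. Ngfr is filled in both age comparisons and Cntf in the repeated-IOP comparison, and Cntf lies beyond the dotted line in all 3 comparisons of IOP with control.

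The question of the IOP comparisons was which genes respond to a mild rise in pressure. Among the tested members only Cntf was called, and only after repeated IOP. Cntf (NM_170786, chr19:12763528-12765632, minus strand) stood at 4.67 and 7.74 FPKM in the 3mo control libraries and at 19.1 and 14.6 FPKM in 3mo IOP. At 18 months the controls stood at 4.92 and 3.06 FPKM, and the treated libraries at 11.6 and 16.1 FPKM. Both treated libraries exceeded both controls at each age. After repeated IOP it was at 1.59 and 2.73 FPKM in control and 8.93 and 11.5 FPKM in 4xIOP, again with no overlap. The treated means were 2.72, 3.47 and 4.72 times the control means. These values rested on between 76 and 1249 reads a library.

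On the log2 scale Cntf rose by 2.03 ± 0.24 (SE, n = 2 per group, limma adjusted p = 8.59e-05) after repeated IOP. Leaving out 4xIOP replicate 2 gave 1.86 with a limma adjusted p of 0.0525. After a single elevation the differences were 1.40 ± 0.31 at 3 months (limma adjusted p = 0.122) and 1.69 ± 0.31 at 18 months (limma adjusted p = 0.101), which did not pass. Only 1.45% and 0.743% of tested genes had larger differences in these comparisons. Both passed once the trend of values with transcript length was removed from each library (limma adjusted p = 0.0475 and 0.0424), and the 3-month difference also passed without 3mo control replicate 2 (1.73, limma adjusted p = 0.0487). The interaction, which asks whether the response to IOP differed with age, was 0.29 ± 0.43 for Cntf (limma adjusted p = 0.9999).

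The Cntf gene lies within Gm44505, a read-through transcript that joins it to the upstream gene Zfp91 on the same strand, and how reads were split between them is not given in the sources used here. Gm44505 was at 13.96 and 12.04 FPKM in 3mo control and 16.7 and 15.6 FPKM in 3mo IOP, a log2 difference of 0.30. The differences were 0.39 at 18 months and 0.44 after repeated IOP, none of them called. Zfp91, a ubiquitin ligase gene, differed by -0.10, 0.06 and 0.07 in the same comparisons. Gm44505 spans the whole of Cntf, so its value is not independent of it, and Zfp91 alone is a neighbour.

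Other markers moved with Cntf. Gfap, the intermediate filament gene of reactive glia, rose in all 3 comparisons with IOP, by 3.44 at 3 months, 3.37 at 18 months and 3.76 after repeated IOP (limma adjusted p = 0.0271, 0.0443 and 6.03e-07). The call of Gfap ended in 7 of 17 other settings at 3 months and 11 of 17 at 18 months, the replicate block (limma adjusted p = 0.0580), voom and the omission of either 18mo control library among the latter, and in 0 of 15 after repeated IOP. Of the 6 astrocyte and reactive glia markers, 2, 5 and 2 were higher without overlap. Over all tested genes, 28.6%, 36.5% and 27.7% were higher without overlap in these comparisons and 3.95%, 9.89% and 12.7% lower. Of 10 Müller glia markers 4, 8 and 7 were higher, with 2 lower after repeated IOP, and of 11 microglia and leukocyte markers 10, 7 and 11 were higher. The Müller glia markers summed to 995.2 and 1091 FPKM in 4xIOP control and 1030 and 1084 FPKM in 4xIOP, and their sums overlapped at 3 months as well (815.0 and 1286 FPKM against 1415 and 1015 FPKM), whereas at 18 months they were 2146 and 1727 FPKM against 3230 and 3108 FPKM. The microglia and leukocyte markers summed to 21.9 to 43.4 FPKM in 3mo control and 79.8 to 112.9 FPKM in 3mo IOP. The corresponding sums were 73.5 to 83.3 FPKM against 115.5 to 224.0 FPKM at 18 months and 11.1 to 11.2 FPKM against 142.7 to 143.4 FPKM with repeated IOP. Of 11 rod markers 5, 7 and 10 were lower without overlap, and of 9 cone markers 1, 8 and 7. Of 10 lens markers 3, 7 and 9 were higher without overlap, with sums of 3.51 and 5.07 FPKM in 18mo control against 6.78 and 21.6 FPKM in 18mo IOP and of 5.02 and 0.84 FPKM in 4xIOP control against 52.3 and 117.5 FPKM in 4xIOP. After repeated IOP 8 of 9 pigment epithelium markers were lower, with sums of 122.9 and 146.4 FPKM against 62.1 and 86.6 FPKM, and at 18 months 5 of 5 blood markers were lower after IOP, with sums of 166.0 and 425.6 FPKM against 54.3 and 44.3 FPKM. Among the 10 markers of Schwann cells and oligodendrocytes, Mog, a myelin gene of oligodendrocytes, was at most 0.028 FPKM in any library, and 4, 3 and 3 were higher without overlap, with 0, 2 and 2 lower. Their sum was nevertheless higher in the treated libraries in each comparison, at 15.8 and 16.7 FPKM against 29.5 and 21.1 FPKM at 3 months, 21.02 and 20.98 FPKM against 33.5 and 28.5 FPKM at 18 months, and 11.2 and 11.7 FPKM against 14.2 and 20 FPKM with repeated IOP. Of 10 smooth muscle and fibroblast markers 10, 4 and 4 were higher without overlap, with 0, 1 and 1 lower. Of 7 ciliary body and iris markers 4, 1 and 1 were higher, with 0, 1 and 3 lower. Their sums at 3 months were 55.8 and 43.9 FPKM in control against 189.9 and 113.5 FPKM in IOP. Of 9 endothelial and pericyte markers 4, 3 and 5 were higher, with 0 lower in each comparison. The part of other cells in the Cntf result was not tested.

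Among the 11 genes listed for CNTF and its receptor complex, 10 were tested, Cntf among them. Repeated IOP raised 4 of the 10, Cntf included, where 5.45% of all genes were called higher, with a list median of 0.48 beside 0.10 over all genes, and after a single elevation 1 was called higher at 3 months and 0 at 18 months, where 0.568% and 0.117% of all genes were called higher and 9 of the 10 had positive differences at each age (medians 0.21 and 0.58 beside 0.13 and 0.09). Socs3, the feedback inhibitor of this pathway, was at 0.351 and 0.313 FPKM in 4xIOP control and 16.2 and 13.2 FPKM in 4xIOP, a rise of 4.19 ± 0.20 (limma adjusted p = 6.69e-08). It was also the gene that passed at 3 months, from 0.956 and 0.801 FPKM to 7.77 and 6.09 FPKM (2.42 ± 0.36, limma adjusted p = 0.0325). That call of Socs3 ended in 9 of 17 other settings, including the omission of any 1 of the 4 libraries (limma adjusted p between 0.0541 and 0.305) and voom. At 18 months the Socs3 controls held 20.6 and 9.33 FPKM and the treated libraries 30.5 and 47.1 FPKM, a difference of 1.41 ± 0.36 that did not pass (limma adjusted p = 0.181). Stat3, the transcription factor activated by the receptor, rose by 2.15 ± 0.23 after repeated IOP (limma adjusted p = 3.95e-05), and Il6st, which encodes the shared signalling subunit, rose by 1.15 ± 0.24 (limma adjusted p = 0.00731). The call of Il6st ended without either 4xIOP control library (limma adjusted p = 0.347 and 0.287) and without 4xIOP replicate 2, where it was 0.99, while those of Stat3 and Socs3 held in 15 of 15 settings. After a single elevation Stat3 differed by 1.56 at 3 months and 1.49 at 18 months, without passing (limma adjusted p = 0.0703 and 0.115). Cntfr, the ligand-binding subunit, differed by 0.27 ± 0.24 at 3 months, 0.27 ± 0.24 at 18 months and -0.12 ± 0.25 after repeated IOP, none of which passed.

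**Figure D3:**
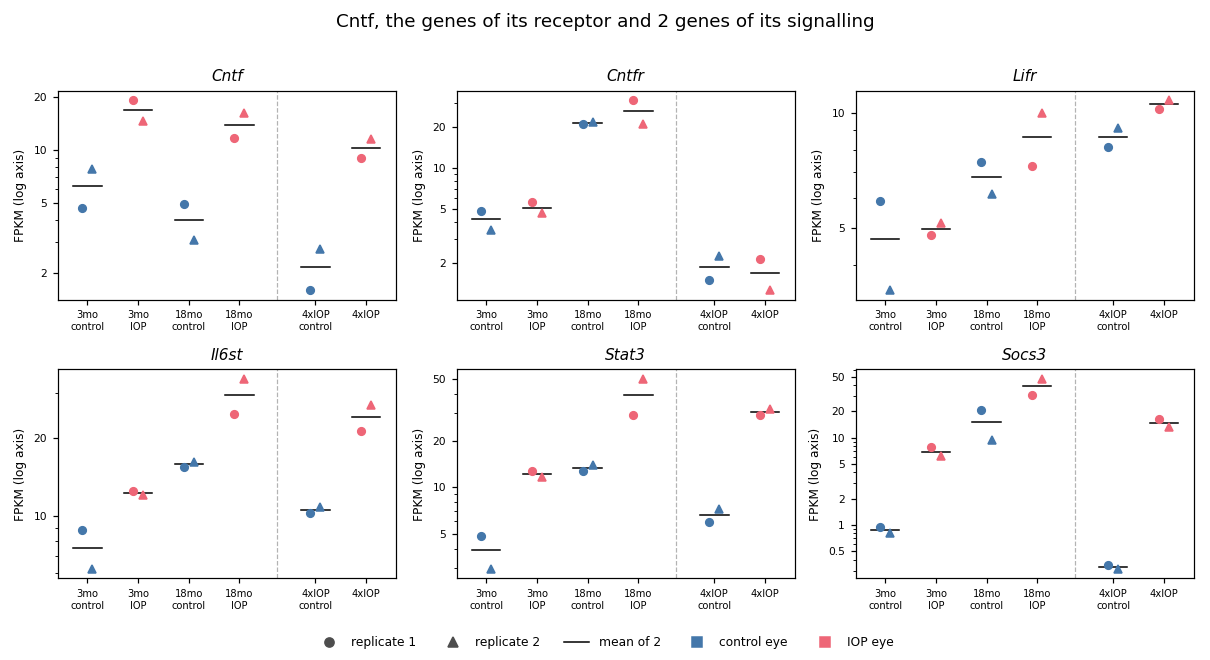
FPKM on a log axis (y) of Cntf, the receptor genes Cntfr, Lifr and Il6st, and Stat3 and Socs3 in the 2 libraries of each group (x axis), with circles for replicate 1, triangles for replicate 2 and a line at the mean. The treated libraries lie above their controls for Cntf, Il6st, Stat3 and Socs3, while Cntfr separates 18mo libraries (21.0 to 31.6 FPKM) from 3mo libraries (3.49 to 5.55 FPKM).

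With age other genes of this list rose, both receptor and signalling genes. Cntfr was at 4.84 and 3.49 FPKM in 3mo control and at 21.0 and 21.6 FPKM in 18mo control, a rise of 2.24 ± 0.24 (limma adjusted p = 0.00312). In the treated eyes it was at 5.55 and 4.602 FPKM at 3 months and at 31.6 and 21.1 FPKM at 18 months, a rise of 2.25 ± 0.24. Of the 10 tested genes 5 were called higher in 18mo control and 6 in 18mo IOP, with none lower, where 11.6% and 10.2% of all genes were called higher (medians 0.83 and 1.14 beside 0.16 and 0.09 over all genes). The calls of Cntfr and Socs3 held in 17 of 17 other settings in both comparisons. That of Il6st ended in 8 of 17 in control eyes and 5 of 17 in treated eyes, and that of Stat3 in 0 and 3. Socs3 rose by 3.39 ± 0.36 in control eyes and 2.38 ± 0.36 in treated eyes. Cntf did not follow them, with age differences of -0.57 ± 0.31 and -0.28 ± 0.31 that did not pass (limma adjusted p = 0.155 and 0.478). Both of these Cntf differences turned positive, at 0.04 and 0.36, when the length trend was removed.

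The age comparisons asked how the retina changes between 3 and 18 months, and here Ngfr stood out among the members. Ngfr (NM_033217, chr11:95568821-95587698, minus strand) was at 2.71 and 1.92 FPKM in 3mo control and 8.19 and 10.03 FPKM in 18mo control. In treated eyes it was at 3.41 and 2.68 FPKM at 3 months and 12.4 and 10.3 FPKM at 18 months. Every 18mo library was above every 3mo library. The means were 2.32 ± 0.56 FPKM and 9.11 ± 1.30 FPKM in control eyes (SD, n = 2), a ratio of 3.93, and the ratio in treated eyes was 3.74.

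The log2 rise of Ngfr was 1.78 ± 0.22 in control eyes (limma adjusted p = 0.00462) and 1.75 ± 0.22 in treated eyes (limma adjusted p = 0.00302). Of all tested genes 3.79% and 4.61% had larger differences. It was 1.59 and 1.56 with the length trend removed and 1.92 and 1.88 without the 2 libraries that stood apart. With IOP Ngfr had differences of 0.34 ± 0.22 at 3 months, 0.31 ± 0.22 at 18 months and -0.05 ± 0.20 after repeated IOP that did not pass (limma adjusted p = 0.854, 0.908 and 0.973). The 4 repeated-IOP libraries, from mice that were 3 months old at the outset, held 4.01 to 5.06 FPKM. Levels set across tables were normalised separately.

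Cell type markers shifted with age beside Ngfr. In control eyes 45.7% of all tested genes were higher without overlap at 18 months and 32.8% lower. Of the marker lists, 9 of 9 endothelial and pericyte, 8 of 11 microglia and leukocyte, 7 of 10 Müller glia and 7 of 10 bipolar cell markers were higher, and 11 of 11 ganglion cell, 8 of 11 rod, 7 of 9 pigment epithelium and 7 of 10 lens markers were lower. In treated eyes the same lists, in this order, had 9, 6, 8 and 6 higher and 11, 9, 7 and 2 lower. Over all tested genes 43.2% were higher there and 34.5% lower. Of 10 smooth muscle and fibroblast markers 0 were higher and 7 lower in treated eyes, against 5 and 3 in control eyes. Of 7 ciliary body and iris markers these counts were 0 and 5, against 2 and 4. Ganglion cell markers summed to 339.0 to 638.5 FPKM in 3mo control and 39.1 to 86.7 FPKM in 18mo control, and endothelial and pericyte markers to 13.5 to 16.6 FPKM and 81.7 to 86.2 FPKM. Their part in the rise of Ngfr was not tested, and age cannot be told apart from the difference in length coverage between the ages.

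Bdnf (NM_001285420, chr2:109693027-109727043, plus strand) was lower in the older retinas by a modest amount. It stood at 1.69 and 1.73 FPKM in 3mo control, 2.16 and 2.20 FPKM in 3mo IOP, 1.07 and 1.22 FPKM in 18mo control and 1.37 and 0.985 FPKM in 18mo IOP. Every 18mo library was below every 3mo library. The difference in treated eyes was -0.68 ± 0.20 with a limma adjusted p of 0.0277, which missed the call because it was under 2-fold, and that in control eyes was -0.42 ± 0.20 (limma adjusted p = 0.112). The latter was -0.64 with the length trend removed and -0.75 with voom on recovered reads (limma adjusted p = 0.0247 and 0.0467). It was -0.56 and -0.61 with median-of-ratios and quantile scaling (limma adjusted p = 0.0443 and 0.0244). In treated eyes voom gave -1.001, which passed the call. Leaving out 3mo IOP replicate 1, 3mo IOP replicate 2 or 18mo IOP replicate 2 took the difference in treated eyes to limma adjusted p values of 0.119, 0.120 and 0.116. With repeated IOP the libraries of Bdnf scattered, at 3.03 and 1.73 FPKM in control and 1.11 and 2.65 FPKM in 4xIOP.

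Not overlapping between groups was common with age: 78.5% of all genes had no overlap between 18mo control and 3mo control and 77.7% between 18mo IOP and 3mo IOP. Among the tested members these counts were 5 of 7 (Bdnf, Ntrk2, Ntrk3, Ngfr and Gfra2) and 5 of 7 (Bdnf, Ntrk3, Ngfr, Gfra1 and Gfra2). For IOP the members without overlap were 3 of 7 at 3 months (Bdnf, Ntrk2 and Cntf) beside 32.5% of all genes, 2 of 7 at 18 months (Ngfr and Cntf) beside 46.4%, and 3 of 7 with repeated IOP (Ntrk2 and Cntf higher, Gfra2 lower) beside 40.3%.

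Of the Trk receptors, Ntrk2, counted over the truncated model, was at 3.71 and 4.27 FPKM in 3mo control and 5.51 and 5.01 FPKM in 3mo IOP, then at 4.33 and 6.45 FPKM in 18mo control and 7.95 and 5.20 FPKM in 18mo IOP. The groups at 18 months overlapped. Counted over the full-length model, it was at 4.15 and 3.94 FPKM in 4xIOP control and 5.06 and 5.59 FPKM in 4xIOP. The differences with IOP were all positive, 0.36 ± 0.25, 0.26 ± 0.25 and 0.36 ± 0.19, and none passed (limma adjusted p = 0.882, 0.977 and 0.454). Ntrk3, also over a truncated model, was at 1.63 and 1.14 FPKM in 3mo control, 1.5 FPKM in both libraries of 3mo IOP, 0.986 and 0.969 FPKM in 18mo control and 0.992 and 0.983 FPKM in 18mo IOP. The 4 values at 18 months lay close together and below all 4 at 3 months, with age differences of -0.34 ± 0.21 and -0.43 ± 0.21 that did not pass (limma adjusted p = 0.209 and 0.125). With the length trend removed these Ntrk3 differences were -0.57 and -0.67 (limma adjusted p = 0.0279 and 0.0180), and with voom on recovered reads -0.65 and -0.70 (limma adjusted p = 0.0725 and 0.0483), all under 2-fold. Without 3mo control replicates 1 and 2 the first was -0.15 and -0.53. Over the full-length model Ntrk3 was at 3.09 and 2.20 FPKM in 4xIOP control and 2.81 and 2.86 FPKM in 4xIOP.

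Ntf3, which encodes neurotrophin-3, was low throughout and fell under the filter in both tables. It was at 0.180 and 0.328 FPKM in 3mo control and 0.962 and 0.645 FPKM in 3mo IOP, at 0.102 and 0.064 FPKM in 18mo control and 0.245 and 0.239 FPKM in 18mo IOP, and at 0 and 0.035 FPKM in 4xIOP control and 0.439 and 0.283 FPKM in 4xIOP. The treated libraries exceeded their controls in all 3 pairs of groups, as they did for 28.6%, 36.5% and 27.7% of all tested genes. Both 4xIOP control values of Ntf3 lay under the limit of 3 reads.

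Of the 13 neurotrophin ligands and receptors 10 were tested. With age 4 were called higher in control eyes and 4 higher and 1 lower in treated eyes, beside 11.6% and 10.2% of all genes called higher (medians 0.66 and 0.58 beside 0.16 and 0.09), and none was called with IOP in either table. The others that rose were sorting receptors of the sortilin family, some of which bind the precursors of neurotrophins. Sorl1 rose by 1.68 ± 0.22 and 2.22 ± 0.22 in control and treated eyes and Sorcs2 by 1.25 and 1.30, while Sort1 rose by 1.03 in control eyes and Sorcs1 by 1.26 in treated eyes. Sorl1 was called in 17 of 17 other settings in both comparisons, Sorcs2 in 13, Sorcs1 in 16 and Sort1 in 9. Sort1 was at 0.61 without 3mo control replicate 2 and 0.59 with the length trend removed, which also took Sorcs2 to 0.86 and 0.85. Of 26 genes of neurotrophin signalling and partners of the common receptor 23 were tested, and 2 and 3 were called higher with age, shares near the 11.6% and 10.2% of all genes, with 20 and 17 of the 23 having positive differences (medians 0.64 and 0.62 beside 0.16 and 0.09). Among them Plat, the tissue plasminogen activator that takes part in cleaving the Bdnf precursor, rose in 18mo control from 1.64 and 1.40 FPKM to 6.45 and 5.72 FPKM (1.70 ± 0.27, limma adjusted p = 0.00564). After repeated IOP 1 gene was called in each direction, beside 5.45% of all genes higher and 0.693% lower (median 0.14 beside 0.10). Vgf, a secreted neuropeptide precursor induced by neurotrophins, fell by 1.54 ± 0.20 on the log2 scale, from 3.70 and 4.46 FPKM to 1.17 and 0.965 FPKM (limma adjusted p = 0.000237), and Nradd, which encodes a membrane protein with a death domain like that of the common receptor, rose by 1.21 ± 0.23 (limma adjusted p = 0.00413), a call that ended without 4xIOP replicate 2 (limma adjusted p = 0.0522), with quantile scaling (0.0525) and with a pseudocount of 1.

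Gdnf itself was at or near the limit of measurement. At 3 months the control libraries held 4 and 0 reads and the treated libraries 0 and 0, and at 18 months the controls held 4 and 0 and the treated libraries 0 and 22. With repeated IOP the controls held 8 and 2 reads and the treated libraries 6 and 6. A count of 0 allows up to 3 reads, a limit that covers counting error only. In no comparison did both libraries of a group exceed both of the other, and the 22 reads (0.107 FPKM) of 18mo IOP replicate 2 had no counterpart in replicate 1.

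Gfra1, the GDNF co-receptor gene (NM_001285457, chr19:58235581-58455398, minus strand), differed widely between the libraries of a group at 18 months. It was at 3.33 and 2.44 FPKM in 3mo control, 4.57 and 3.25 FPKM in 3mo IOP, 1.26 and 2.97 FPKM in 18mo control and 3.14 and 0.805 FPKM in 18mo IOP. The low values came from 18mo control replicate 1 and 18mo IOP replicate 2. The difference between 18mo IOP and 3mo IOP was -0.9997 ± 0.49 (limma adjusted p = 0.131). It became -1.74 (limma adjusted p = 0.0295) without 18mo IOP replicate 1 and -0.26 (limma adjusted p = 0.652) without 18mo IOP replicate 2. Without both libraries that stood apart, 18mo control and 3mo control differed by 0.05 in place of -0.44. With repeated IOP Gfra1 was at 4.25 and 4.595 FPKM in control and 4.00 and 6.09 FPKM in 4xIOP, which overlap. Gfra1 is overlapped on the opposite strand by Gm10007, and the counting used strand.

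The same 2 libraries were low in other genes of this pathway. Ret, the signalling receptor, was at 0.633 and 0.432 FPKM in them and at 2.17 and 2.23 FPKM in the other 18mo libraries. Gfra4, the persephin co-receptor gene, was at 2.08 and 1.66 FPKM against 4.31 and 4.58 FPKM. Gad1, which marks GABAergic amacrine cells, was at 9.70 and 2.23 FPKM against 26.0 and 27.3 FPKM. Amacrine markers summed to 75.8 and 54.9 FPKM against 119.1 and 143.0 FPKM, and ganglion cell markers to 39.1 and 39.7 FPKM against 86.7 and 95.8 FPKM. Ngfr differed less, with 8.19 and 10.3 FPKM against 10.03 and 12.4 FPKM. The part of the marker difference in the levels of Gfra1 was not tested.

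**Figure D4:**
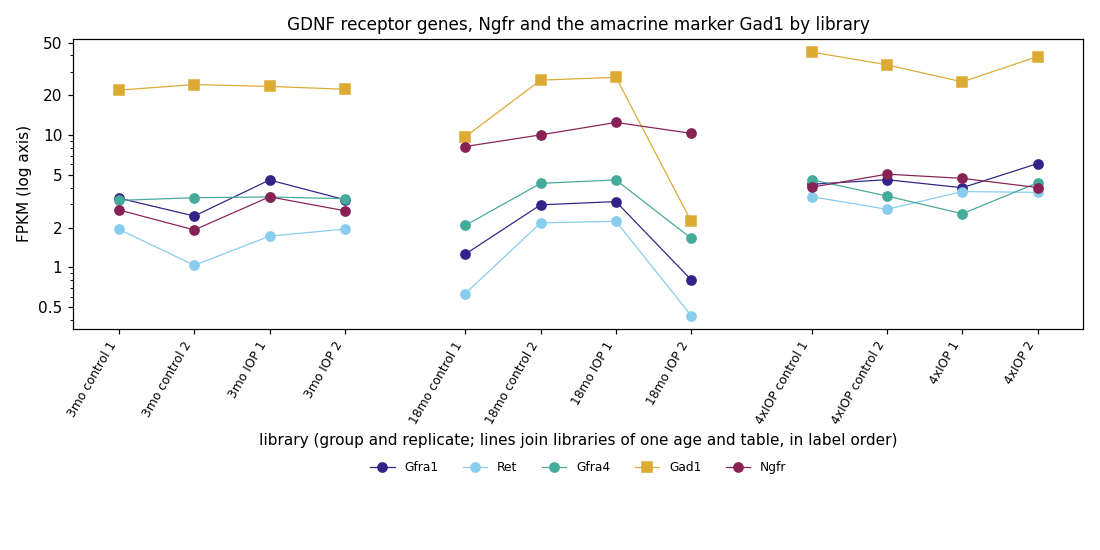
FPKM on a log axis (y) of Gfra1, Ret, Gfra4, Ngfr and the amacrine marker Gad1 in each of the 12 libraries (x axis, by group and replicate), with lines joining libraries of one age and table. In 18mo control replicate 1 and 18mo IOP replicate 2 Gfra1, Ret, Gfra4 and Gad1 lie below the other 18mo libraries, and Ngfr stays within 8.19 to 12.4 FPKM at 18 months.

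Gfra2, the co-receptor gene preferred by neurturin, was at 3.38 and 2.07 FPKM in 3mo control, 2.25 and 3.24 FPKM in 3mo IOP, 3.63 and 4.16 FPKM in 18mo control and 5.23 and 3.88 FPKM in 18mo IOP. All 18mo values were above all 3mo values, with differences of 0.48 ± 0.27 and 0.65 ± 0.27 that did not pass (limma adjusted p = 0.171 and 0.0816). In the repeated-IOP table, over another transcript, it was at 2.65 and 2.99 FPKM in control and 2.24 and 1.44 FPKM in 4xIOP. This difference of -0.52 ± 0.22 did not pass either (limma adjusted p = 0.250), and it was the second member besides Cntf with an unadjusted p under 0.05 there (0.0342). Of 12 GDNF family ligands and receptors 7 were tested in the single-IOP table and 6 in the other. The calls were 1 higher and 1 lower in 18mo IOP against 3mo IOP, where 10.2% of all genes were called higher and 11.6% lower, and none elsewhere. Nrtn, the neurturin gene, was lower in 18mo IOP by 1.35 on the log2 scale (limma adjusted p = 0.0161), at 3.56 and 2.69 FPKM against 8.51 and 8.86 FPKM, and Ncam1, an adhesion receptor that also binds GDNF, was higher by 1.01 (limma adjusted p = 0.0227). Both calls ended without 3mo IOP replicate 1, 3mo IOP replicate 2 or 18mo IOP replicate 2, and with the length trend removed, where Nrtn was at -0.58 and Ncam1 at 0.63. Ret differed by between -0.55 and 0.27 across the 5 comparisons of groups, without a call.

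For none of the 7 genes did the response to IOP differ between ages by the interaction test. The interactions ran from -0.56 ± 0.70 for Gfra1 to 0.29 ± 0.43 for Cntf. Of all 13731 genes 0% passed this test in limma, with 218 at an unadjusted p under 0.05, none of them among the 7, and voom on recovered reads also passed 0. With standard errors of 0.28 or more for each of the 7, a moderate difference between ages was not detectable.

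Of 17 other retinal trophic factors, 16 were tested in the single-IOP table and 14 in the repeated-IOP table. With age 2 were called higher and 2 lower in control eyes, and 4 higher and 2 lower in treated eyes, beside 11.6% higher and 11.6% lower over all genes in control eyes and 10.2% and 11.6% in treated eyes (medians -0.21 and -0.26 beside 0.16 and 0.09). Fgf1, acidic fibroblast growth factor, fell from 7.03 and 7.33 FPKM in 3mo control to 1.57 and 2.15 FPKM in 18mo control (-1.72 ± 0.31, limma adjusted p = 0.00703). Lif, leukaemia inhibitory factor, a cytokine that uses the Lifr and Il6st subunits, was higher in 18mo IOP (1.77 and 12.8 FPKM) than in 3mo IOP (0.607 and 0.375 FPKM), by 2.48 ± 0.67 (limma adjusted p = 0.0222). This difference of Lif was 3.76 without 18mo IOP replicate 1 and 1.20 without 18mo IOP replicate 2, and the call ended without either 3mo IOP library (limma adjusted p = 0.0882 and 0.106). After repeated IOP Fgf2, basic fibroblast growth factor, rose from 0.620 and 1.58 FPKM to 21.9 and 24.1 FPKM (3.94 ± 0.26, limma adjusted p = 7.50e-07), 1 gene of the list fell (Nxnl1, which encodes rod-derived cone viability factor, a call that ended without either control library), beside 5.45% of all genes higher and 0.693% lower, and a single elevation brought no call. The differences of Fgf2 after a single elevation were 2.20 ± 0.50 at 3 months, from 1.36 and 1.18 FPKM to 7.07 and 8.28 FPKM, and 2.50 ± 0.50 at 18 months, from 4.03 and 4.46 FPKM to 13.3 and 51.5 FPKM, without passing (limma adjusted p = 0.133 and 0.115). That of Lif at 18 months was 2.58 ± 0.67 (limma adjusted p = 0.193).

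The genes most like each member over the 8 single-IOP libraries were found by Pearson's r on log2(FPKM + 0.5), given as a description over libraries that share age and depth differences. For Ngfr these were Gtf2i (r = 0.999) and Il17ra (0.998), and for Cntf Proca1 (0.993) and Serp1 (0.989). For Bdnf they were Slc6a12 (0.985) and Tbc1d12 (0.984), for Ntrk2 Pck2 (0.977) and Ermp1 (0.962), and for Ntrk3 Tardbp (0.986) and Naa25 (0.977). Gfra1 was most like Matk (0.989) and Cacng5 (0.978), and Gfra2 most like Pag1 (0.987) and Rnf152 (0.980). Among the members themselves, Bdnf was nearest to Ntrk3 (0.84) and Gfra1 (0.80) and Ngfr to Gfra2 (0.83), while the r of Cntf with the other 6 lay between -0.23 and 0.37.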

How the data were processed

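Fresh whole retinas were extracted in TRIzol, and the authors sequenced stranded libraries of their poly(A) RNA. Reads were aligned to mm10 with STAR (2.7.8a) and uniquely mapped tags in exons of 1 transcript per locus were counted by strand with HOMER. What the authors deposited is FPKM over the length of that transcript, scaled to total tags, in 1 table per experiment. Replicates were not pooled. Tag totals were recovered from the steps of the values, which came to whole reads within 0.1 reads for 100% of those checked. A count of 3 reads was taken as the limit.

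Tests covered genes whose mean reached 0.5 FPKM (13731 and 13718), with limma (3.58.1, R 4.3.3) on log2(FPKM + 0.5), as 4 groups in 1 fit for the single-IOP table and alone for the repeated-IOP table, with Benjamini-Hochberg adjustment over all tested genes. The steps were tested on simulated data. Each library was from a single eye, but numbers do not tie eyes to animals, and with 2 libraries a group the p-values measure only the spread between libraries. The 8 genes, the pathway and marker lists and the tests were chosen with earlier results of these data known. Named besides the 8 were the 2 most alike genes of each, up to 4 called genes of the pathway lists per comparison with the largest change, and the direct partners Cntfr, Ret and Ntf3. Some genes that this rule names are not reported here. Gfra4, Gad1, Gfap, Il6st, Sorl1 in control eyes, Sorcs1, Sorcs2, Sort1, Stat3 at single IOP, Nrtn, Ncam1, Nradd, Nxnl1, Fgf2 and Lif after single IOP were named after their values were seen. Alternatives covered pseudocounts of 0.1 and 1, filters, scaling, the length trend (splines, 5 degrees of freedom), a replicate block, voom on recovered reads and leaving out libraries.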

Additional observations from a re-analysis of the deposited data

How the results depend on the processing

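The rise of Ngfr with age kept its direction and call under all alternatives run, with log2 values between 1.57 and 1.98 in control eyes and between 1.56 and 1.90 in treated eyes. The rise of Cntf after repeated IOP kept its direction under all of them and its call except without 4xIOP replicate 2. The number of members called was 2 in 18mo IOP against 3mo IOP by the adjusted p alone and with voom (Bdnf at -1.001), and 1 to 2 when a library was left out. It was 1 in each of the comparisons of a single IOP elevation with control once the length trend was removed, 0 to 1 at 3 months when a library was left out and 0 to 1 after repeated IOP. Under the mean of at least 2 FPKM no value was had for Bdnf and Ntrk3 in the single-IOP table. The number of members called in 18mo control against 3mo control was 1 throughout, and that of the interaction 0 throughout. With the 2 unlike 18mo libraries left out together, chosen after seeing the data, the counts of members called did not change.

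Numbers do not pair eyes by their labels, and same-numbered libraries deviated in opposite directions from their group means (r = -0.28 at 3 months, -0.53 at 18 months and -0.29 for repeated IOP, across genes). With the replicate block the counts of members called were 1 and 1 with age, 0 and 0 with a single IOP elevation, 0 for the interaction and 1 with repeated IOP, and with the crossed block, added after seeing the data, they were the same. Over all genes the block called 53 in place of 79 genes at 3 months and 0 in place of 17 at 18 months.

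The share of called genes depended on the setting. Across the alternatives that kept all libraries the number called over all genes ran from 2214 to 3825 in 18mo control against 3mo control (3185 as reported), from 2021 to 3532 in 18mo IOP against 3mo IOP (3000), from 3 to 120 at 3 months (79), from 0 to 41 at 18 months (17), from 0 to 2 for the interaction (0) and from 475 to 967 with repeated IOP (843). Single libraries moved these counts further. In 18mo control against 3mo control leaving out replicates 1 and 2 of 3mo control gave 4717 and 1517, and leaving out replicates 1 and 2 of 18mo control gave 1721 and 1176. In 18mo IOP against 3mo IOP it was 809 and 722 without 3mo IOP replicates 1 and 2. After IOP at 3 months it was 0 and 257 without control replicates 1 and 2 and 0 and 7 without IOP replicates 1 and 2, and at 18 months 0 and 0 without control replicates 1 and 2 and 144 and 6 without IOP replicates 1 and 2. The interaction gave 2 without 3mo IOP replicate 2. After repeated IOP it stayed between 682 and 798. Without the 2 unlike libraries it was 363 and 821 with age. Median-of-ratios scaling moved the median of all genes from 0.16 to 0.0096 in 18mo control against 3mo control and from 0.13 to -0.040 in 3mo IOP against 3mo control, and the share of called genes that were higher from 50.1% to 35.02% in the former.

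Directions of differences that did not pass the call changed as follows. With the length trend removed Ntrk2 was at -0.069 and -0.24 with age and Cntf at 0.041 and 0.36. With median-of-ratios scaling, quantile normalization and voom, in this order, Ntrk3 was at -0.042, -0.12 and -0.055 after IOP at 3 months and -0.068, -0.12 and -0.10 at 18 months, Gfra2 at -0.14, -0.17 and -0.19 at 3 months, and Bdnf at -0.066, -0.12 and -0.11 at 18 months. With quantile normalization Gfra1 was at -0.011 and Ntrk3 at -0.074 after repeated IOP, and the interaction was 0.0048 for Ntrk3 and 0.056 for Ngfr. The Ngfr interaction was 0.00086 with a pseudocount of 1 and 0.015 with median-of-ratios scaling. Without the 2 unlike libraries Gfra1 was at 0.046 with age in control eyes and 0.071 after IOP at 18 months.

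Leaving out 1 library at a time, Gfra1 ran from -0.93 to 0.046 in 18mo control against 3mo control and Ntrk2 from -0.014 to 0.55 in 18mo IOP against 3mo IOP. After IOP at 3 months Ntrk3 ran from -0.088 to 0.29 and Gfra2 from -0.28 to 0.32. At 18 months Ntrk2 ran from -0.024 to 0.54, Gfra1 from -0.92 to 0.56, Gfra2 from -0.0027 to 0.39 and Bdnf from -0.15 to 0.18. After repeated IOP Gfra1 ran from -0.13 to 0.42, Bdnf from -0.81 to 0.16, Ngfr from -0.20 to 0.10 and Ntrk3 from -0.10 to 0.31. The interaction ran from -0.28 to 0.10 for Ntrk3, -0.38 to 0.18 for Ntrk2, -1.30 to 0.18 for Gfra1, -0.13 to 0.47 for Gfra2, -0.24 to 0.17 for Ngfr and -0.044 to 0.63 for Cntf. Where this left a group with 1 library, that library was assumed to vary like the other groups.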
